A study of Mus musculus with 150 samples.

Results

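Asic1, Asic2, Asic3 and Asic4 encode the acid-sensing ion channels of the mouse, and their levels were followed through 150 single sensory neurons. The 4 genes were listed by symbol and taken out of 54082 genes in the deposited count table, with values of these libraries already known. They were selected on a rule that reads their CPM per cell as subunit combinations in each neuron type and as glabrous against hairy values, with the litter as the replicate. Each library was 1 neuron of a CD1 mouse (Charles River), labelled as a somatosensory neuron without any named genotype or treatment. In all, 45 cells carried the label hairy, 1 carried both skin labels, and the other 69.3% were labelled glabrous (hairless skin). They came from 10 litters, at postnatal day 4 (33 cells, 2 litters) or postnatal day 5 (the other cells), on 2 plates. The sources used here do not say how a cell received its skin label. Joined litter names such as E_F_G were counted as 1 litter, as labelled.

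Acid-sensing ion channels are sodium channels of the degenerin/epithelial sodium channel family that open when protons bind outside the cell. A working channel is built of 3 subunits, which can be alike or different, so the set of subunit genes in a cell bounds the channels it can build. Asic1, Asic2 and Asic3 are well-known genes of dorsal root ganglion neurons. Asic3 encodes the subunit with a sustained current in mild acid. Asic2 encodes a subunit that needs stronger acid when alone and changes the behaviour of mixed channels. The product of Asic4 forms no proton-gated current by itself. All of them have also been studied in touch neurons, because related proteins of worms sense touch.

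Asic1 lies on chromosome 15 (99670368 to 99701130, plus strand, mm10), Asic2 on chromosome 11 (80880169 to 81968457, minus strand), Asic3 on chromosome 5 (24413392 to 24417835, plus strand) and Asic4 on chromosome 1 (75450436 to 75474343, plus strand). All are protein-coding genes. Asic2 spans 6 other annotated genes but shares 0 exon bases with them. Asic4 shares 493 exon bases with Gm37264, a gene on the opposite strand, which had 13 counts in all. The counts are per gene, so the 1a and 1b forms of Asic1 and the 2a and 2b forms of Asic2 were not told apart. Levels are CPM, the counts of a gene scaled to a cell's total of 1e+06. Whether the counts were scaled for transcript length is not known here, so levels were compared between cells within a gene and never between genes.

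The stretches before the annotated starts of Asic3 and Asic1 are shown because these 2 genes ran together across the Nefh-high cells described later. They are RefSeq sequences of build GRCm38.p6, matched by symbol. Both are read 5′ to 3′ on the plus strand, and capitals mark TGTGGT, the core motif of RUNX transcription factors. The Asic3 stretch is chr5:24413201-24413391, the part of the 250 bases before the RefSeq start that no annotated exon overlaps, so 59 bases were left out. The Asic1 stretch is chr15:99691974-99692223, the 250 bases before a RefSeq start that lies inside the annotated gene.
Asic3: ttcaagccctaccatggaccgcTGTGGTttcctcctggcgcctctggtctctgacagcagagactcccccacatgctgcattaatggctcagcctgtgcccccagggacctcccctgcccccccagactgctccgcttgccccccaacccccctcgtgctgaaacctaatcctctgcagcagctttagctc
Asic1: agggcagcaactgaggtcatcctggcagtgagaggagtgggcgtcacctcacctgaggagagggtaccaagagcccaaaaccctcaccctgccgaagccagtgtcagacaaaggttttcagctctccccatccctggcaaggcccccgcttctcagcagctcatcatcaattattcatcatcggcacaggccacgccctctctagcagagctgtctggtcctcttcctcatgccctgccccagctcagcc
TGTGGT was searched on both strands and stood once in the Asic3 window, 228 bases before the start, and 0 times in that of Asic1. Among 32851 windows of the same length, 14% held it. TATAAA was absent from both and present in 12.4% of all windows. A match is a string of letters here and was not tested as a binding site.

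Total counts per cell ran from 395811 to 1053854 and detected genes from 4360 to 15865, and 6 cells had fewer than 10000 genes. One count was therefore worth 0.949 CPM in the deepest cell and 2.53 CPM in the shallowest. Plate 1 held 85 glabrous and 10 hairy cells, plate 2 held 19 and 35. Neurons were sorted into types by marker genes that are not members. Nefh, the heavy neurofilament gene of large myelinated neurons, was below 500 CPM in 46 cells and above in the others, with no cell between 377 and 623 CPM. Nefh-high types were named by the receptor gene with the highest level, and those described here were Ret-led (30 cells), Ntrk3-led (16) and Ntrk2-led (17). That lead was under 2-fold in 8 Ret-led, 2 Ntrk3-led and 1 Ntrk2-led cells. The Nefh-low cells were Mrgprd-positive (12), Tafa4-positive (14) or Calca-positive (14) at 100 CPM, in that order, and 6 passed no marker.

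The neuronal label held in most cells but not in all. The summed CPM of 6 markers listed for sensory neurons of all types (Tubb3, Snap25, Prph, Isl1, Pou4f1 and Avil) had a median of 8019 in Nefh-high cells and 4545 in Calca-positive cells. In the 6 cells without a marker it was 654 (79 to 2123), beside 8815 for 6 Schwann cell markers and 245.7 for 5 red blood cell markers. The highest red blood cell sum there was 247738 CPM. Tafa4-positive cells had all 7 markers of C-fibre touch neurons above 0 at the median, at a sum of 1730 CPM. These markers include Tafa4, the gene by which the cells were selected. Nefh-high and Mrgprd-positive cells had 6 of the 7 above 0 at the median, so that count hardly separates them from Tafa4-positive cells. Their median sums were lower, at 86.1 and 476 CPM. Schwann cell markers were also high in Tafa4-positive cells (median 5285 CPM) and Calca-positive cells (4073), against 1468 in Nefh-high cells. Their part in the results was not tested.

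Asic1, Asic2 and Asic3 were each found in most cells, and Asic4 in almost none. At 10 CPM or more, Asic1 was present in 77.3% of 150 cells (exact Clopper-Pearson 95% interval 69.8 to 83.8), Asic2 in 90% (84 to 94.3) and Asic3 in 86% (79.4 to 91.1). Per cell, Asic1 ran from 0 to 569 CPM with a median of 71.2, Asic2 from 0 to 423 with a median of 87.9, and Asic3 from 0 to 703 with a median of 246. Asic4 had 4 counts in all, in 3 Nefh-high cells, with at most 2 in a cell. At 0 of 150 cells at 10 CPM, the upper limit of its share was 2.43%. These intervals cover counting error only. Asic4 was not tested in any comparison, and Asic5, its relative, had 0 counts.

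The 3 expressed genes differed in how they were spread over the neuron types, as the plot of single cells by type shows. Levels by type are means over litters (SD, n = litters), each litter value being the sum of at least 2 cells. Each type was tested against the mean of the other 6 in the fit with edgeR's quasi-likelihood test and Benjamini-Hochberg adjustment over all 14636 genes tested. Of 18 member-by-type tests in the 6 types described, 10 passed an adjusted p of 0.05. The background was 7.56% of genes for Ret-led, 7.46% for Ntrk3-led and 7.22% for Ntrk2-led cells. It was 8.96% for Mrgprd-positive, 10.4% for Tafa4-positive and 24.8% for Calca-positive cells. Since levels by type were in view when the genes were listed, these tests give the size of each difference and are no independent evidence. The types were spread unevenly over plates, with 13 of 14 Tafa4-positive cells on plate 2 and 10 of 12 Mrgprd-positive cells on plate 1. The part of plate in these calls was not tested. With 1 cell enough for a sum, 6 of the 10 calls were lost: Asic1 in Calca-positive cells (-0.40, adjusted p = 0.683) and Asic2 in Ret-led, Ntrk3-led, Mrgprd-positive, Tafa4-positive and Calca-positive cells (adjusted p from 0.0649 to 0.336).

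**Figure D1:**
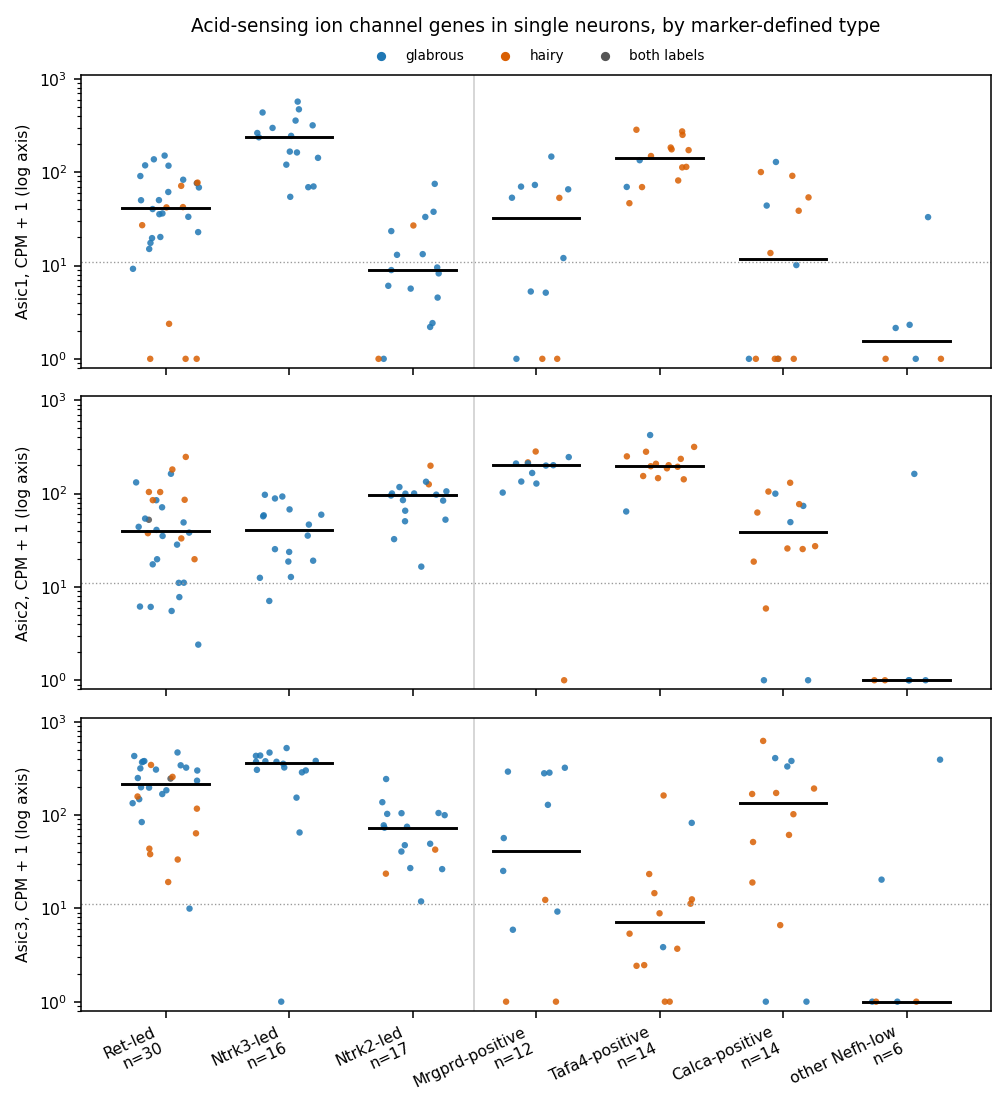
Level of Asic1, Asic2 and Asic3 in single cells by neuron type (CPM + 1 on a log axis; blue glabrous, orange hairy, grey both labels; black bar, median; dotted line, 10 CPM). Asic1 has medians of 240 CPM in Ntrk3-led and 7.93 CPM in Ntrk2-led cells, and Asic3 has medians of 362 CPM in Ntrk3-led and 6.10 CPM in Tafa4-positive cells.

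Asic1, whose product opens at mild acid and is found throughout the nervous system, was higher in Ntrk3-led neurons than in the other types. The 3 litters stood at 255, 266 and 322 CPM there, a mean of 281 ± 36.2 CPM, and the type was 2.31 ± 0.33 (SE) above the others on the log2 scale (adjusted p = 0.000101). Tafa4-positive neurons followed at 116.1, 134.9, 147.01 and 231.8 CPM, a mean of 157 ± 51.2. Their log2 difference was 1.81 ± 0.37 (adjusted p = 0.00262), and 1.23 (adjusted p = 0.145) without litter P_Q.

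At the other end stood the Ntrk2-led neurons, with Asic1 at 5.94, 6.27, 11.2 and 22.0 CPM in 4 litters (mean 11.4 ± 7.48). Their difference was -2.84 ± 0.43 on the log2 scale (adjusted p = 0.000175). Each of these litters lay below every litter of the Ntrk3-led and Tafa4-positive types. The share of all genes with such a separation was not counted. Only 7 of 17 Ntrk2-led cells reached 10 CPM, while 15 of 17 had at least 1 count. Calca-positive neurons were also lower (-1.26 ± 0.36, adjusted p = 0.0140), at 17.2 to 41.5 CPM in 5 litters. That call was lost without litter E_F_G (adjusted p = 0.0599) or I (0.0855). Ret-led neurons, at 47.4 ± 16.1 CPM in 6 litters, differed by -0.43 ± 0.33 (adjusted p = 0.532). Mrgprd-positive neurons, at 36.4 ± 11.3 CPM in 3 litters, differed by -0.97 ± 0.43 (adjusted p = 0.183).

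The order of Asic1 over the types described fell into steps. At the top, Ntrk3-led minus Tafa4-positive was 0.43 ± 0.50 on the log2 scale, which was not beyond the spread (edgeR, adjusted p = 0.656). Ret-led cells lay below Tafa4-positive cells by -1.92 ± 0.47 (adjusted p = 0.00773), in a pair where 13.3% of genes passed. Lower down, some pairs passed and others did not. Ret-led minus Mrgprd-positive was 0.46 ± 0.49 (adjusted p = 0.632), Ret-led minus Calca-positive 0.71 ± 0.44 (0.267), Mrgprd-positive minus Calca-positive 0.24 ± 0.51 (0.812) and Ntrk2-led minus Calca-positive -1.36 ± 0.49 (0.0598). Those that passed were Ret-led minus Ntrk2-led, at 2.06 ± 0.48 (0.0353), and Ntrk2-led minus Mrgprd-positive, at -1.60 ± 0.48 (0.0263). In these pairs 0.902% and 13.9% of genes passed.

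Asic2, whose product tunes mixed channels, was highest in Nefh-low neurons of the Tafa4-positive and Mrgprd-positive types. Tafa4-positive litters stood at 181, 212, 221 and 262 CPM (mean 219 ± 33.2) and Mrgprd-positive litters at 167, 185 and 210 CPM (mean 187 ± 22.0). The log2 differences from the other types were 1.00 ± 0.27 (adjusted p = 0.0201) and 1.48 ± 0.27 (adjusted p = 0.000992). The fit placed Mrgprd-positive above Tafa4-positive cells by 0.41 ± 0.40, the reverse of the plain means (edgeR, adjusted p = 0.699). The sums of these types shared no litter, so that contrast runs through the other types in the fit. Mrgprd-positive sums came from litters E_F_G, H and I, and Tafa4-positive sums from L, M, O and P_Q. The Tafa4-positive call was lost without litter I (adjusted p = 0.0555), M (0.0578) or O (0.0730), and the Mrgprd-positive call without litter E_F_G (0.0936).

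Asic2 was lowest in the Ntrk3-led neurons, at 22.5, 42.8 and 63.9 CPM (mean 43.1 ± 20.7), a log2 difference of -1.33 ± 0.31 (adjusted p = 0.00813). Without litter E_F_G the adjusted p was 0.116, and without I it was 0.0533. Calca-positive neurons ran from 16.8 to 74.9 CPM (mean 50 ± 25.4) and differed by -1.11 ± 0.26 (adjusted p = 0.00368). Ret-led neurons ran from 29.3 to 72.4 CPM in 6 litters (mean 56.6 ± 16.1) and differed by -0.79 ± 0.24 (adjusted p = 0.0465). That call was lost without any 1 of 6 litters: C_D, E_F_G, H, I, K or O, at adjusted p from 0.0560 to 0.223. Ntrk2-led neurons (103.3 ± 34.1 CPM) differed from the rest by 0.34 ± 0.25 (adjusted p = 0.538).

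In the order of Asic2, Ntrk2-led minus Mrgprd-positive was -0.98 ± 0.33 (adjusted p = 0.0505) and Ret-led minus Ntrk2-led -0.97 ± 0.31 (0.204). Ret-led minus Calca-positive was 0.27 ± 0.32 (0.586) and Ntrk3-led minus Calca-positive -0.19 ± 0.36 (0.767). So these neighbours did not pass the test. Of types farther apart, some pairs passed and others did not. Ret-led cells lay below Tafa4-positive cells by -1.54 ± 0.34 (adjusted p = 0.00391), while Ntrk3-led minus Ntrk2-led was -1.43 ± 0.37 (0.0850) and Ntrk2-led minus Tafa4-positive -0.57 ± 0.36 (0.371).

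Asic3, whose product carries the sustained acid current, was lower in Tafa4-positive neurons than in the other types. The 4 litters stood at 2.52, 8.20, 11.3 and 83.8 CPM (mean 26.5 ± 38.4). Their difference was -3.05 ± 0.70 (adjusted p = 0.00648), and -2.72 (adjusted p = 0.0598) without litter P_Q. The 83.8 CPM of litter O came from 2 cells, 1 at 160.9 CPM and the other at 7.8 CPM.

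The other 5 types described did not pass the test for Asic3 against the rest. Ntrk3-led litters stood at 228, 342 and 420 CPM (mean 330 ± 96.4) and differed by 0.98 ± 0.52 (adjusted p = 0.332). Ret-led litters ran from 98.3 to 276 CPM (mean 200 ± 63.4) and differed by 0.77 ± 0.44 (adjusted p = 0.362). Calca-positive litters stood at 8.10, 82.4, 132.4, 297 and 354 CPM (mean 175 ± 145.9), the widest spread of the types described. Their difference was 1.11 ± 0.50 (adjusted p = 0.111), the largest of the types described, although their plain mean lay below those of Ntrk3-led and Ret-led litters. It passed at 1.74 (adjusted p = 0.00434) without litter E_F_G, the 1 at 8.10 CPM, and was as low as 0.51 among the alternative settings. Mrgprd-positive litters, at 105.4, 113.2 and 139.5 CPM (mean 119.3 ± 17.9), differed by -0.52 ± 0.60 (adjusted p = 0.705). Ntrk2-led litters, at 24.3, 47.9, 79.01 and 103.8 CPM (mean 63.8 ± 34.9), differed by -1.48 ± 0.58 (adjusted p = 0.146). Without litter E_F_G that value was -1.93 (adjusted p = 0.0255).

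The neighbours compared in the order of Asic3 did not pass the test either. Ret-led minus Ntrk3-led was -0.19 ± 0.66 (adjusted p = 1), Ret-led minus Calca-positive -0.30 ± 0.63 (0.782), Mrgprd-positive minus Calca-positive -1.39 ± 0.77 (0.273), Ntrk2-led minus Mrgprd-positive -0.83 ± 0.66 (0.486) and Ntrk2-led minus Tafa4-positive 1.35 ± 0.85 (0.362). Farther apart, Ret-led lay above Tafa4-positive neurons by 3.27 ± 0.79 (adjusted p = 0.00755).

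**Figure D2:**
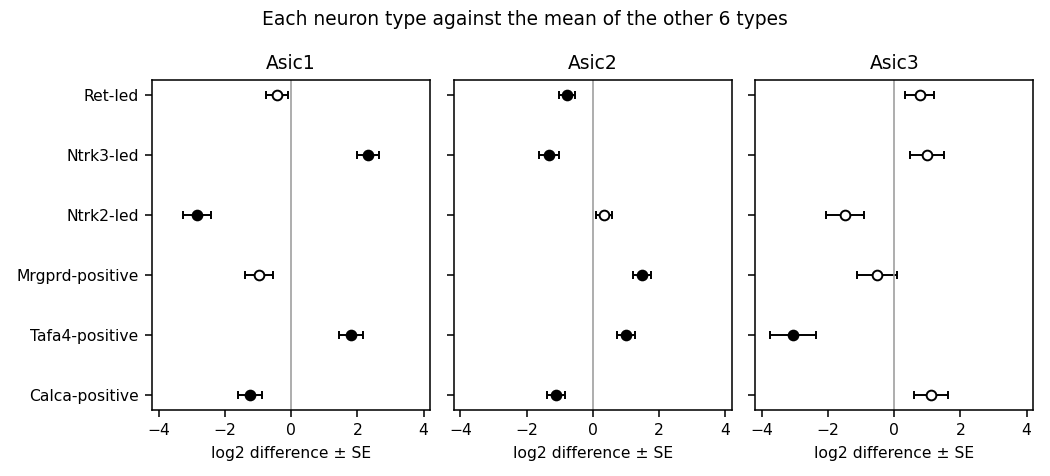
Log2 difference of 6 neuron types, each from the mean of the other 6 types in the fit, for Asic1, Asic2 and Asic3 (points, edgeR estimate; bars, SE; filled, adjusted p at most 0.05). Asic1 runs from -2.84 in Ntrk2-led to 2.31 in Ntrk3-led neurons, and Asic3 from -3.05 in Tafa4-positive to 1.11 in Calca-positive neurons.

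Single cells of a type varied among themselves to different degrees. In Mrgprd-positive cells, Asic3 had quartiles of 7.40, 39.9 and 280 CPM, so some cells lay near those of the Ntrk3-led type and others near 0. Asic1 in those cells had quartiles of 3.09, 31.5 and 65.6 CPM. Both levels moved with the number of detected genes in these 12 cells (Spearman 0.75 for Asic3 and 0.72 for Asic1), whose part in the spread was not tested. Asic2, in contrast, lay between 101.5 and 281 CPM in all but 1 of the 12 cells, which had 0. In Ret-led cells the coefficients of variation were 0.832 for Asic1, 1.01 for Asic2 and 0.607 for Asic3. The 6 cells without a marker had medians of 0.570, 0 and 0 CPM for Asic1, Asic2 and Asic3.

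The channel genes present in the same cell formed a few recurring sets. With 10 CPM as the threshold, 98 of 150 cells (65.3%, exact 95% interval 57.1 to 72.9) had Asic1, Asic2 and Asic3 together. The full set was found in 14 of 16 Ntrk3-led (87.5%, 61.7 to 98.4) and 20 of 30 Ret-led cells (66.7%, 47.2 to 82.7). Ntrk2-led cells were split between the full set (7 of 17) and Asic2 with Asic3 (10 of 17, 58.8%, 32.9 to 81.6). Tafa4-positive cells had Asic1 with Asic2 in 8 of 14 (57.1%, 28.9 to 82.3) and the full set in the other 6. Mrgprd-positive cells had the full set in 6 of 12 and Calca-positive cells in 6 of 14. Each interval covers counting error only, over pooled cells that share litters, so the spread between litters is left out. The share of each set depends on the threshold. At 1 count or more, Asic1, Asic2 and Asic3 were together in 15 of 17 Ntrk2-led and 12 of 14 Tafa4-positive cells, leaving 2 of 17 with Asic2 and Asic3 and 2 of 14 with Asic1 and Asic2. At 25 CPM or more the full set was that of 76 of 150 cells, 9 of 16 Ntrk3-led, 14 of 30 Ret-led, 3 of 17 Ntrk2-led and 2 of 14 Tafa4-positive cells. Asic2 with Asic3 was then the set of 11 of 17 Ntrk2-led cells and Asic1 with Asic2 that of 12 of 14 Tafa4-positive cells. In cells thinned to equal depth with a minimum of 4 counts, these were 9 of 17 and 9 of 14. None of the genes reached 10 CPM in 6 cells: 3 without a marker, 2 Calca-positive and 1 Mrgprd-positive. Of those 6, 3 had fewer than 10000 detected genes.

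**Figure D3:**
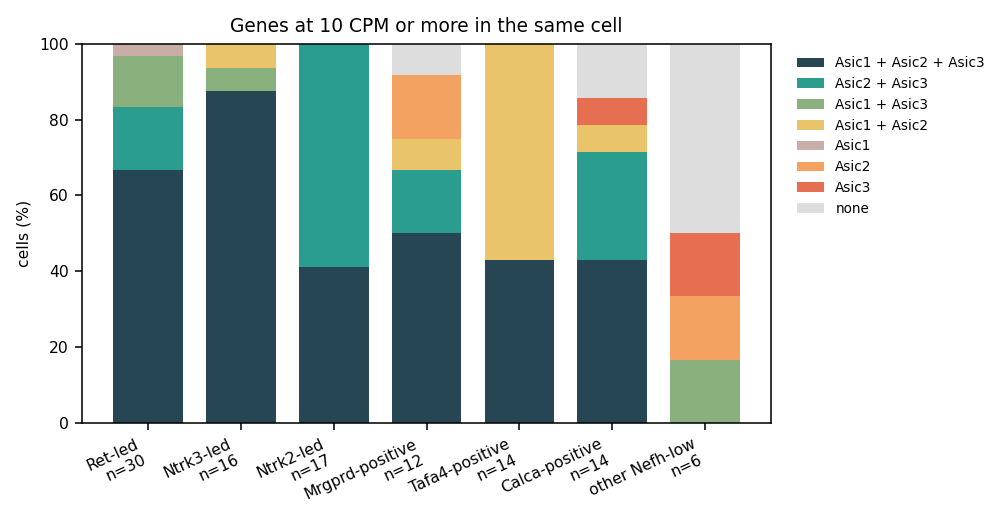
Share of cells (%) in each neuron type by the set of Asic genes at 10 CPM or more in the cell, a threshold that moves these shares; colours are sets and n is the number of cells. The full set is found in 87.5% of Ntrk3-led cells, Asic2 with Asic3 in 58.8% of Ntrk2-led cells and Asic1 with Asic2 in 57.1% of Tafa4-positive cells.

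Nefh-high neurons had more of these genes per cell than Nefh-low neurons. In 7 litters with at least 2 cells of each, the mean number of Asic genes at 10 CPM was 2.82 ± 0.187 (SD, n = 7) against 2.0 ± 0.186. The difference of 0.820 ± 0.277 was positive in 7 of 7 litters (exact two-sided sign-flip permutation test, p = 0.0156, the smallest it can give). With cells thinned to 395811 counts and a minimum of 4 counts it was 0.783 ± 0.333. Without the 6 cells that passed no marker it was 0.606 ± 0.318, positive in 6 of 7 litters (exact p = 0.0312). Single types did not all follow this difference. At 10 CPM the full set was in 41.2% of Ntrk2-led cells, against 87.5% of Ntrk3-led and 66.7% of Ret-led cells. Among Nefh-low cells it was in 50% of Mrgprd-positive cells and in 42.9% of both Tafa4-positive and Calca-positive cells. Levels by type were in view when the genes were listed. So these p-values, and those of the members by Nefh level that follow, are no independent evidence.

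Among the members, the split by Nefh level showed most in Asic3. The types described did not all follow it. Ntrk2-led litters had a mean of 63.8 CPM, below the Nefh-low Mrgprd-positive (119.3) and Calca-positive litters (175). Ntrk3-led (330) and Ret-led litters (200) lay above these. Over the 7 litters Asic3 ran from 26.1 to 185 CPM in Nefh-low sums, with a median of 69.5 and a mean of 90.5 ± 56.3. In Nefh-high sums it ran from 202 to 437 CPM, with a median of 304 and a mean of 310 ± 71.02. Every Nefh-high sum lay above every Nefh-low sum. Among list genes described later, the same held for Car2, Kcnk1 and Lin7b, while the groups overlapped for Magi1. The share of all genes without overlap was not counted. The log2 difference was 1.90 ± 0.39 (edgeR with the litter as a block, adjusted p = 0.00708), among 2988 of 13135 genes that passed (22.7%). It was 1.11 within plate 1 (adjusted p = 0.198) and 2.59 within plate 2 (0.0109). In glabrous cells alone it was 0.67 (adjusted p = 0.315) and in hairy cells alone 3.06 (0.0474), and whether these differ was not tested.

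Asic2 fell and Asic1 did not pass. Asic2 ran from 77.2 to 204 CPM in Nefh-low sums (median 145.9, mean 140 ± 47.6) and from 59.9 to 214 in Nefh-high sums (median 87.8, mean 101.3 ± 51.8). The groups overlapped, 5 of 7 litters were lower, and the log2 difference was -0.59 ± 0.19 (adjusted p = 0.0458). This call rests on the setting: it was lost without litter E_F_G, H, I, L or O (adjusted p from 0.0967 to 0.132), without the block (0.165) and without TMM scaling (0.0691), and in hairy cells alone the value was 0.40. Asic1 ran from 28.96 to 97.9 CPM in Nefh-low sums and from 43.98 to 269 in Nefh-high sums, with a log2 difference of 0.54 ± 0.38 (adjusted p = 0.345). It was higher in 4 of 7 litters, 1.32 in glabrous cells alone and -0.12 in hairy cells alone.

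Skin type is the study's own comparison, and the members were listed with it in view, so their values are a description without a test. Counts of all cells of a skin type were summed in each of 7 litters. Asic3 ran from 212 to 490 CPM in glabrous sums (median 344, mean 330 ± 92.5) and from 8.93 to 213 in hairy sums (median 123.6, mean 118.2 ± 68.7). It was lower in hairy skin in 7 of 7 litters, although the ranges touched at 212 and 213 CPM. The fitted log2 difference, hairy minus glabrous, was -1.74 ± 0.41. Asic2 ran from 55.1 to 120 CPM in glabrous sums (median 91.7, mean 86.5 ± 23.5) and from 95.8 to 168 in hairy sums (median 159, mean 139.03 ± 30.3). All 7 litters had the higher value in hairy skin, by 0.68 ± 0.14. Asic1 ran from 30.7 to 246 CPM in glabrous and from 0 to 102.7 in hairy sums, was lower in 6 of 7 litters and higher in litter L, and differed by -1.21 ± 0.65. No member was among the 12 of 12852 genes (0.0934%) that passed.

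The skin types did not hold the same cells. Ntrk3-led neurons were 16 glabrous and 0 hairy cells, and Tafa4-positive neurons 2 glabrous and 12 hairy cells. With the neuron type in the model the differences were -0.67 ± 0.42 for Asic1, 0.63 ± 0.32 for Asic2 and -1.001 ± 0.52 for Asic3. Without Tafa4-positive cells they were -1.74, 0.43 and -1.33. Within plate 1 they were -2.82, 0.50 and -2.70, and within plate 2 -0.34, 0.76 and -1.07. Median summed Schwann cell markers were 1562 CPM in glabrous and 3117 in hairy cells, and fibroblast markers 174 and 431 CPM. The part of cell mix, plate and these markers in the skin difference was not tested beyond these values.

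**Figure D4:**
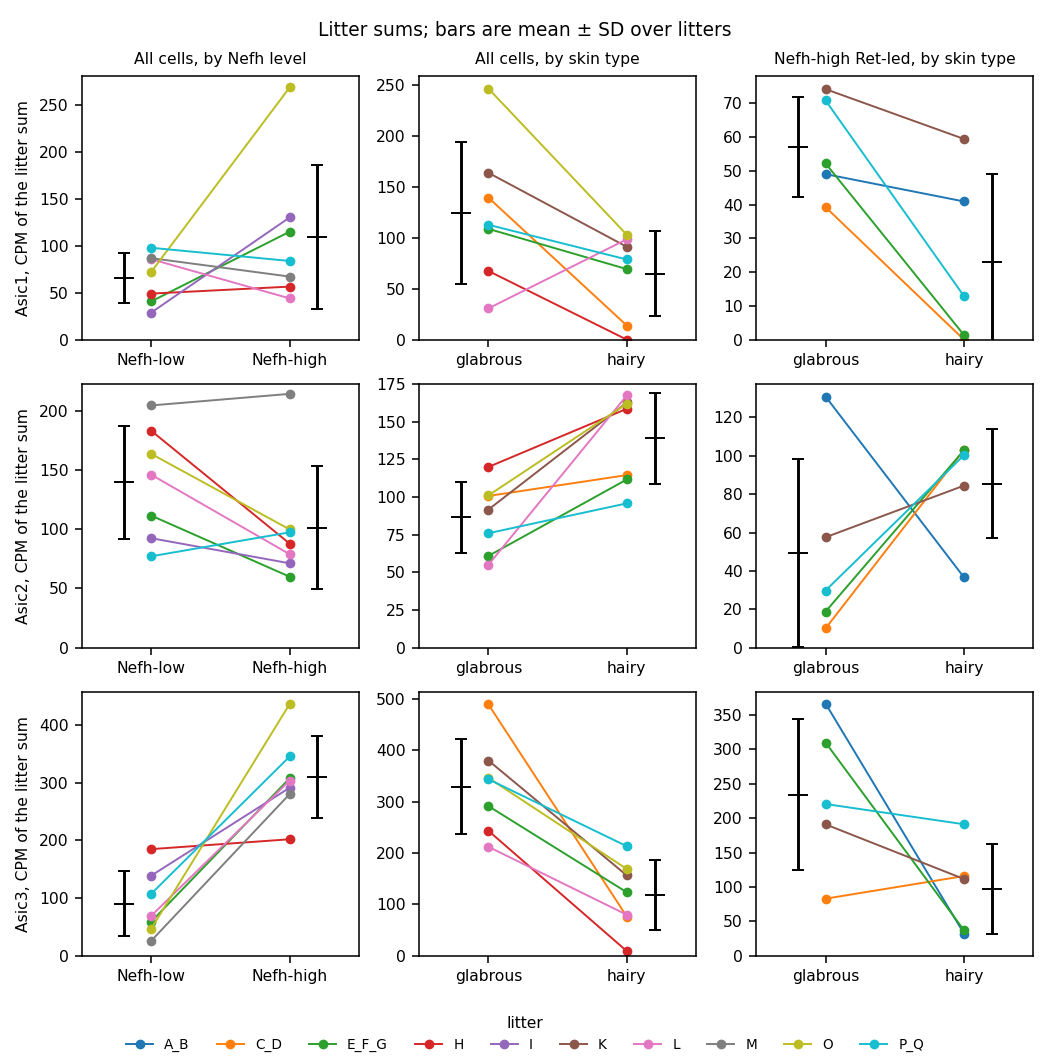
Asic1, Asic2 and Asic3 in litter sums (CPM; 1 colour and line per litter; black bars, mean ± SD over litters), by Nefh level, by skin type in all cells and by skin type in Ret-led cells. Asic3 is higher in Nefh-high than in Nefh-low sums in 7 of 7 litters and lower in hairy than in glabrous sums in 7 of 7, and in 4 of 5 among Ret-led cells.

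Within Nefh-high, Ret-led neurons, the touch neurons named by their Ret level, all 3 genes leaned the same way as in all cells. Here 5 litters had at least 1 cell of each skin type, 14 glabrous and 7 hairy cells in all. Asic1 stood at 49.1 CPM (litter A_B), 39.3 (C_D), 52.2 (E_F_G), 74.2 (K) and 70.9 (P_Q) in glabrous sums. In hairy sums it stood at 40.96, 0, 1.37, 59.5 and 12.9 CPM in the same order. The hairy sum was the lower in 5 of 5 litters, with means of 57.1 ± 14.9 and 22.9 ± 26.2 CPM and a log2 difference of -1.91 ± 0.71. The 0 came from 1 cell with 776410 counts.

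Asic2 in the same litters stood at 130.8, 10.1, 18.8, 57.5 and 29.8 CPM in glabrous sums and at 36.6, 103.04, 102.9, 84.4 and 100.3 CPM in hairy sums. The hairy sum was the higher one in 4 of 5 litters, A_B being the exception, with means of 49.4 ± 48.9 and 85.5 ± 28.4 CPM and a log2 difference of 1.35 ± 0.64. Asic3 stood at 367, 83.01, 310, 191 and 221 CPM in glabrous sums and at 32.3, 115.9, 37.04, 111.6 and 191 CPM in hairy sums. The hairy sum was the lower one in 4 of 5 litters, C_D being the exception, with means of 234 ± 110 and 97.6 ± 65.6 CPM and a log2 difference of -1.25 ± 0.55. Glabrous and hairy values overlapped for each gene, and no member was among the 9 of 9799 genes (0.0918%) that passed.

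These values rest on few cells, since 3 of the 5 hairy sums and 2 of the glabrous sums were 1 cell. With at least 2 cells per sum the differences were -1.22, 1.16 and -0.44 for Asic1, Asic2 and Asic3. With every Nefh-high cell at 200 CPM of Ret or more in place of the Ret-led rule they were -0.92, 0.37 and -0.93. Within plate 1 they were -2.85, 1.52 and -2.01, and within plate 2 -1.54, 0.89 and -0.57. Over single Ret-led cells, the median of Asic1 was 44.2 CPM in 20 glabrous and 26.04 in 9 hairy cells. The median of Asic2 was 30.8 and 84.8 CPM, and that of Asic3 273 and 62.6 CPM. Asic2 with Asic3 but no Asic1 was the set of 1 of 20 glabrous and 4 of 9 hairy Ret-led cells, and the full set was that of 14 and 5. Schwann cell markers stood at medians of 1596 and 1576 CPM in these cells, and satellite glia markers at 2670 and 1358 CPM.

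Across all Nefh-high cells the skin differences were -1.40 ± 0.48 for Asic1, 0.22 ± 0.37 for Asic2 and -1.32 ± 0.51 for Asic3. The hairy sums behind them held 1 to 7 cells. In that fit 0 of 12087 genes passed (0%) with edgeR, 729 were at an unadjusted p under 0.05, and DESeq2 called 89.

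Age was compared between litters in glabrous cells, 2 litters at day 4 and 7 at day 5. Asic1 was 138.1 ± 36 and 108.1 ± 70.3 CPM, Asic2 83.9 ± 11.1 and 92.9 ± 29.8 CPM, and Asic3 362 ± 25.8 and 312 ± 94.7 CPM. The differences, day 5 minus day 4, were -0.36 ± 0.53, 0.16 ± 0.29 and -0.19 ± 0.26 on the log2 scale. None passed, and 0 of 15185 genes did (0%) with edgeR, beside 422 at an unadjusted p under 0.05 and 3 calls by DESeq2.

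Across single cells the members ran together in some groups and not in others, given as descriptions over cells that share litters, plates and depth. Asic1 and Asic3 had a Spearman correlation of 0.62 over the Nefh-high cells. Within types it was 0.51 in 30 Ret-led, 0.16 in 16 Ntrk3-led and 0.05 in 17 Ntrk2-led cells. Over 46 Nefh-low cells it was 0.57 for Asic1 with Asic2 and 0.10 for Asic1 with Asic3, and the values within types were different. Asic1 with Asic2 was at 0.30 in 12 Mrgprd-positive, 0.05 in 14 Tafa4-positive and 0.27 in 14 Calca-positive cells. Asic1 with Asic3 was at 0.82, -0.01 and 0.34 in the same order. The number of detected genes moved with these levels in places. Over all Nefh-low cells its correlation was 0.39 with Asic1, 0.49 with Asic2 and 0.23 with Asic3, and in Tafa4-positive cells it was -0.62 with Asic1. Its part in these values was not tested.

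**Figure D5:**
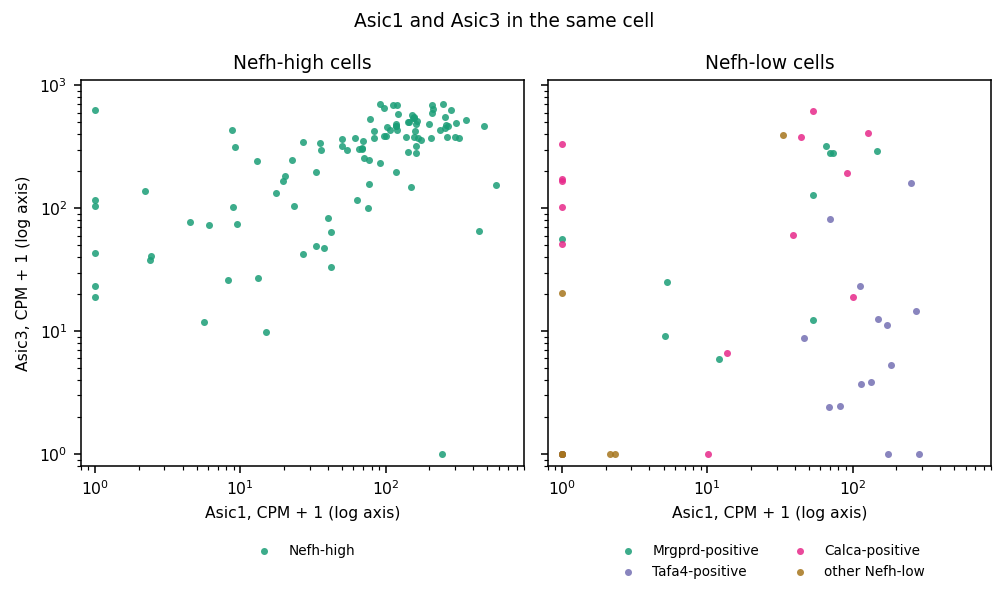
Asic1 against Asic3 in each cell (CPM + 1, both axes log), for Nefh-high cells on the left and Nefh-low cells on the right, the latter coloured by type. Nefh-high cells run from low values of both to high values of both (Spearman 0.62), while Tafa4-positive cells have Asic1 at 45.5 CPM or more with Asic3 at a median of 6.10 CPM.

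The genes whose pattern was most like each member were ranked by Spearman correlation over all 150 cells among 10064 genes with a mean of at least 10 CPM. For Asic1 they were Ldha (0.62), Acap3 (0.62), Rufy3 (0.60), Kctd8 (0.59) and Ncs1 (0.58). For Asic2 they were Dok4 (0.78), Isl2 (0.74), Trarg1 (0.71), Samd14 (0.69) and Gpd1l (0.67). For Asic3 they were Ly6h (0.75), Gng8 (0.71), Abcg2 (0.71), Tpbg (0.71) and Pqlc1 (0.70). The list for Asic3 follows the Nefh split: Ly6h had medians of 141.6 CPM in Nefh-high and 18.5 in Nefh-low cells. The list for Asic2 leans the other way, with Isl2, a LIM-homeodomain transcription factor gene, at 154 and 373 CPM.

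Genes of the same pathway were followed in lists of 45 genes. Of proteins that bind acid-sensing channels, 10 of 11 genes were tested between Nefh-high and Nefh-low cells, 1 passed as higher and 1 as lower, beside 11.6% of all genes higher and 11.2% lower (22.7% in all), so the share called was near that of all genes. The median log2 difference was -0.18 beside -0.05 over all genes. Lin7b, a scaffold gene of neuronal membranes, was at 8.12 ± 3.81 CPM in Nefh-low and 59.7 ± 12.8 in Nefh-high sums (2.86 ± 0.27, edgeR adjusted p = 0.000218). Magi1, another scaffold gene, was at 146.3 ± 51.03 and 73.1 ± 24.97 CPM (-1.06 ± 0.19, adjusted p = 0.00359).

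Of 12 other acid sensors, 7 were tested, 1 passed as higher and 0 as lower, not above the 22.7% of all genes called, with a median of -1.002 beside -0.05 over all genes. The one was Kcnk1, a potassium leak channel gene, at 8.59 ± 2.81 CPM in Nefh-low and 75.2 ± 33.4 in Nefh-high sums (2.95 ± 0.42, adjusted p = 0.00111). Trpv1, the capsaicin and acid receptor gene, was at 124.8 ± 105.7 and 20.5 ± 33.5 CPM and did not pass (-2.85 ± 0.94, adjusted p = 0.0541). It was 6.31 ± 0.65 above the other types in Calca-positive neurons (adjusted p = 1.18e-06) and 2.87 ± 0.90 in Mrgprd-positive neurons (0.0483). P2rx3, an ATP-gated channel gene whose current acid alters, was higher in Tafa4-positive (0.90), Ntrk2-led (0.82) and Mrgprd-positive neurons (0.81). It was lower in Calca-positive neurons (-1.38), each at an adjusted p of 0.0411 or less.

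Of 14 genes of pH regulation, 11 were tested between Nefh levels, 5 passed as higher and 2 as lower, beside 11.6% and 11.2% of all genes, with a median of 0.59 beside -0.05 over all genes. Among the higher ones were Car2, a carbonic anhydrase gene (2.88 ± 0.79), the bicarbonate transporter genes Slc4a10 (2.34 ± 0.60) and Slc4a8 (1.22 ± 0.27), and the sodium-proton exchanger gene Slc9a5 (2.14 ± 0.69). The lower ones were Slc4a4, another bicarbonate transporter gene (-1.33 ± 0.38), and Car11 (-0.57 ± 0.18), which encodes a relative of carbonic anhydrase without its activity. Car2 passed as higher in Ret-led (2.57 ± 0.45), Ntrk3-led (4.09 ± 0.48) and Ntrk2-led neurons (3.35 ± 0.45). Slc16a3, a lactate transporter gene, was higher in Tafa4-positive neurons (3.29 ± 0.82, adjusted p = 0.0120) and Calca-positive neurons (2.10 ± 0.71, adjusted p = 0.0340).

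Neither the epithelial sodium channel genes Scnn1a, Scnn1b and Scnn1g with Asic5 nor the 4 genes of peptides that act on these channels (Npff, Npvf, Pdyn and Penk) passed the filter on low counts in any comparison. Between skin types no gene of the 5 lists passed, over all cells or in Ret-led cells. Over all cells the medians, hairy minus glabrous, were -0.06 for the binding proteins (10 tested), 0.32 for the other acid sensors (7) and -0.29 for pH regulation (12), beside -0.02 over all genes.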

How the data were processed

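PolyA RNA of 150 single neurons was amplified (18 cycles, 5 cDNA batches) and made into Nextera XT libraries, per the labels' protocols. FastQC, cutadapt, Salmon and mm10 are named in the submitters' processing notes, whose versions were not used here. The authors deposited the values as estimated counts per gene, already whole numbers. CPM was computed from each cell's total. The 4 genes and the 5 gene lists were chosen with earlier results of these data known. Cells were summed by litter and group. A sum needed at least 2 cells, or 1 in the skin sums of Ret-led and of all Nefh-high cells. With the neuron type in the model, 1 cell was also enough. The sums were tested with edgeR 4.0.16 (TMM, low-count filter, quasi-likelihood test, Benjamini-Hochberg adjustment, litter as a block) in R 4.3.3. DESeq2 1.42.0 was an alternative. The fits were tested on simulated data. Samples pair by litter label, and deviations of a litter's 2 sums correlated from -0.168 to 0.265. Genes named are the members, list genes past the threshold, and the 5 genes most like each member. Results for 1 of the 7 types in the fit and for 1 list gene are not reported here. Nothing says which cells shared an animal, so p-values measure the spread between litters as labelled.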

Additional observations from a re-analysis of the deposited data

Results flagged for a closer look

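In 4 of the 42 groups of 4 to 10 litters examined, 1 litter stood apart by Dixon's criterion, which chance alone meets in about 1 in 20 groups. Asic1 in Nefh-high sums was 268.9 CPM in litter O, the highest of 7. Asic2 in Nefh-high sums was 214.2 CPM in litter M, the highest of 7. In Ret-led hairy sums, Asic2 was 36.6 CPM in litter A_B, the lowest of 5 and a single cell. Asic3 in Tafa4-positive sums was 83.8 CPM in litter O, the highest of 4, from 1 cell at 160.9 CPM and another at 7.8 CPM.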

How the results depend on the processing

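The calls that Asic1 was higher in Ntrk3-led neurons and lower in Ntrk2-led neurons were kept under each of 17 alternatives. Over all 7 types in the fit there were 12 member calls, of which 6 were left with 1 cell enough for a sum, and without single litters 8 to 12. Calls summed over all types, where a gene counts once for each type that called it, were 6326 to 11313 without single litters. They were 6787 in glabrous cells only.

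For skin type in all cells, edgeR called 342 genes without the filter on low counts, 21 with at least 3 cells per sum, 2 with the neuron type in the model, 1 with single-cell sums, and 0 within plate 1, within plate 2 or without Tafa4-positive cells. Leaving out single litters gave 0 to 15, and DESeq2 337. Members passed in 2 of these: with DESeq2, 2 members, Asic2 (0.68) and Asic3 (-1.77), and without the filter 2 members, Asic1 (-1.25) and Asic3 (-1.78). In Ret-led cells the counts were 113 with DESeq2, 222 without the filter, 22 with at least 2 cells per sum, 35 within plate 2, 0 within plate 1, 0 at a Ret level of 200 CPM or more, and 1 without any single litter. Without the filter 3 members passed there: Asic1 (-1.95), Asic2 (1.30) and Asic3 (-1.30). In Nefh-high cells 89 genes passed with DESeq2, 226 without the filter (2 of them members), 7 with no replicate block, and 0 to 2 without single litters. By age, DESeq2 called 3 genes and single litters left out gave 0 to 1. The age difference of Asic2 ran from -0.01 to 0.35 and turned at -0.0072 without litter P_Q. The causes were not tested.

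Between Nefh levels, 180 genes passed in glabrous cells only, 404 in hairy cells only, 620 within plate 1 and 1215 within plate 2. Of the 2 members called, 1 was left with no TMM, no replicate block, without cells under 10000 genes, at a Nefh level of 250 or 1000 CPM, in hairy cells or within plate 2. None (0) was left in glabrous cells or within plate 1, and 1 to 2 without single litters. Asic1 was 0.63 without the filter and -0.12 in hairy cells. Asic2 was -0.51 with no TMM, -0.53 with no replicate block, -0.59 without cells under 10000 genes, -0.44 and -0.42 at Nefh levels of 250 and 1000 CPM, -0.84 in glabrous cells, 0.40 in hairy cells, -0.85 within plate 1, -0.30 within plate 2 and -0.70 to -0.45 without single litters. Asic3 was 0.67 in glabrous cells and 1.11 within plate 1. The block changed no other member call. Counts of 1 to 7 cells limit the Ret-led sums.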
